A study of Mus musculus with 4 samples.

Results

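The histone genes were taken as the rows of the deposited gene table whose name starts with HIST1H, HIST2H, HIST3H, HIST4H, H1F, H2AF or H3F, a rule on names that uses no measured value. It gave 72 of 30854 rows. Of these, 59 were genes of the histone gene clusters (names starting with HIST) and 13 were replacement variants or solitary linker histone genes. RNA was measured on 4 bead arrays of LSK cells, the Lin-negative, Sca-1-positive, Kit-positive marrow cells that include blood stem cells, sorted from C57BL6/J mice of 12 to 16 weeks that had all received the interferon inducer pIpC 1 week before harvest. The 2 control arrays were labelled control only, with no allele named, and the 2 knockout arrays came from B-myb floxed-MxCre mice. In the latter the Mx promoter, which responds to interferon in many tissues, drives the recombinase, so deletion is not limited to LSK cells. Each array held a pool of 3 to 5 mice. B-Myb (Mybl2) is a transcription factor of dividing cells, and the comparison asked how the RNA of stem and early progenitor cells differs without it.

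Core histones H2A, H2B, H3 and H4 form the spool around which DNA is wound, and linker histone H1 binds the DNA between spools. The cluster genes are known as replication-dependent: they are transcribed in S phase and most of their transcripts end in a stem-loop in place of a poly(A) tail. Replacement variants such as H3.3 (H3f3a, H3f3b), H2A.Z (H2az1, H2az2) and macroH2A (Macroh2a1) are made in all phases of the cycle from polyadenylated transcripts, and H2AX (H2ax) makes transcripts of both kinds. In human cells HIST1H1C, HIST1H2AC and HIST2H2BE are among the cluster genes known to also make polyadenylated transcripts. The labelling kit named in the labels belongs to a type that primes on poly(A) tails, so the cluster values may refer mainly to the polyadenylated share of these transcripts, which was not tested. Cluster genes of a class are also close to identical in their coding parts, and the place of the probes is not known. A value under 1 name may hold signal from several copies, so single cluster genes are uncertain, H2A, H2B, H3 and H4 genes above all.

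The knockout arrays were the dimmer ones. The median log2 intensity of the tested genes before normalization between arrays was 6.87 and 6.52 in the controls against 6.01 and 5.70 in the knockouts, and rows with a detection p-value under 0.05 numbered 12297 and 13439 against 10761 and 8797. Of the gate genes, Ly6a (Sca-1) differed by −0.20 ± 0.34 (SE) on the log2 scale and Kit by −0.86 ± 0.21, with an adjusted p of 0.803 and 0.237 in limma. Marker genes of other cells moved with genotype or with single arrays. All 7 tested megakaryocyte markers were lower in the knockouts, with summed normalized intensities of 1757 to 1923 in the controls and 575 to 688 in the knockouts. All 6 tested granulocyte-monocyte progenitor markers were higher, with sums of 8796 to 9690 and 15223 to 21736. The 9 tested neutrophil markers summed to 1556 and 4544 in the controls, 16448 on knockout replicate 1 and 1069 on knockout replicate 3. Every megakaryocyte and progenitor marker with a row was above background on at least 2 arrays, and of the neutrophil markers Mmp8 was not on any. The 7 tested erythroid markers summed to 4400 and 3661 in the controls, 2967 on knockout replicate 1 and 8144 on knockout replicate 3. Of these 4 were higher and 3 lower: the globin genes Hba-a1 (log2 level 11.90) and Hbb-b1 (11.57) were highest on knockout replicate 3, while Car1 (−2.36 ± 0.25), Klf1 (−0.65 ± 0.21) and Epor (−0.57 ± 0.21) were lower on both knockout arrays. The part of these cells in the histone values was not tested. In such sorted pools fewer cells of a type and less RNA per cell cannot be told apart.

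Detection was wide among histone genes. A gene counted as above background wherever the deposited detection p-value, a comparison with negative control beads, was under 0.05. On that measure 58 and 59 of the 72 rows were above background on control replicates 1 and 2, 58 on knockout replicate 1 and 52 on knockout replicate 3. 49 rows were above background on all 4 arrays, 6 on 3, 5 on 2, 3 on 1 and 9 on none. Of all 30854 rows, 7498 were above background on all 4 arrays, 12142 on at least 2 and 15040 on none. All 17 H2A cluster rows and all 12 H4 rows reached 2 arrays or more, as did 11 of 15 H2B rows, 8 of 9 H3 rows and 3 of 6 H1 rows. Of the replacement and solitary genes 9 of 13 did.

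The 12 rows that did not pass this filter included the germ cell genes H1FNT (testis), H1FOO (oocyte), HIST1H1T and HIST1H2BA (testis). Their signals ran from 78.3 to 109.6, and none exceeded the 95th percentile of the negative controls on any array. H2AFY2 and H2AFY3, named as further macroH2A genes, stayed at 78.6 to 99.1. Of the somatic linker histones HIST1H1D was above background on 0 arrays and HIST1H1E on knockout replicate 3 alone, with a signal of 116. HIST1H3G, HIST3H2BA and HIST3H2BB, the latter matched to a pseudogene, reached at most 108.9. HIST1H2BC was a different case. Its signals of 226.7, 186.6, 169.9 and 137.4 exceeded that percentile on all 4 arrays although its detection p-value was never under 0.05. Changes were computed for the remaining 60 rows, of which 59 entered the fit. HIST1H4M shares its gene, H4c17, with a row under another identifier that was brighter and stood for the gene, and was at −0.11 ± 0.28 when every row was kept. The row that stood for H4c17 was at 0.18 ± 0.21, the opposite sign.

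No histone gene passed the test across all genes. With limma's moderated test and Benjamini-Hochberg adjustment over 11538 genes, 0 of 59 histone genes had an adjusted p under 0.05, where the share over all genes was 0.00%. At an unadjusted p under 0.05 there were 11 of 59 histone genes (18.6%) against 15.3% of all genes. Of these 7 were lower in the knockout (8.77% of all genes were) and 4 higher (6.56% of all genes). Both knockout values lay outside both control values on the same side for 32 of 59 (54.2%), 17 lower and 15 higher, against 50.1% of all genes (28.1% lower and 22.0% higher). These shares lie near those of all genes. On the log2 scale the median change was −0.15 over the 50 tested cluster genes and −0.22 over the 9 replacement and solitary genes, beside −0.04 over all genes. When arrays were scaled to a common median instead, the 11538 tested genes had a median of −0.70 and these medians were −0.87 and −0.96. That common median was taken over all 30854 rows, of which 15040 were above background on no array. Under that scaling 6 of 59 histone genes (10.2%) passed the adjusted threshold, all lower (HIST1H1C, HIST1H2AC, HIST2H2AA1, HIST1H2AE, H2AFX and H1FX). Of all genes 8.15% passed it, 934 of 940 lower, so the histone share was near that of all genes. The cluster median turned to 0.13 when knockout replicate 3 was left out, and leaving out knockout replicate 1, control replicate 1 or control replicate 2 gave −0.45, −0.01 and −0.23. It was −0.06 without background correction and with detection on all 4 arrays, and −0.09 with cyclic loess. Differences of at least 1 on the log2 scale were found in 4 of the 59 genes (6.78%), all lower, against 3.93% of all genes. HIST2H2AA1 is one of them and HIST1H2AA one of the 4 higher genes above, and each was above background in a single genotype.

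**Figure D1:**
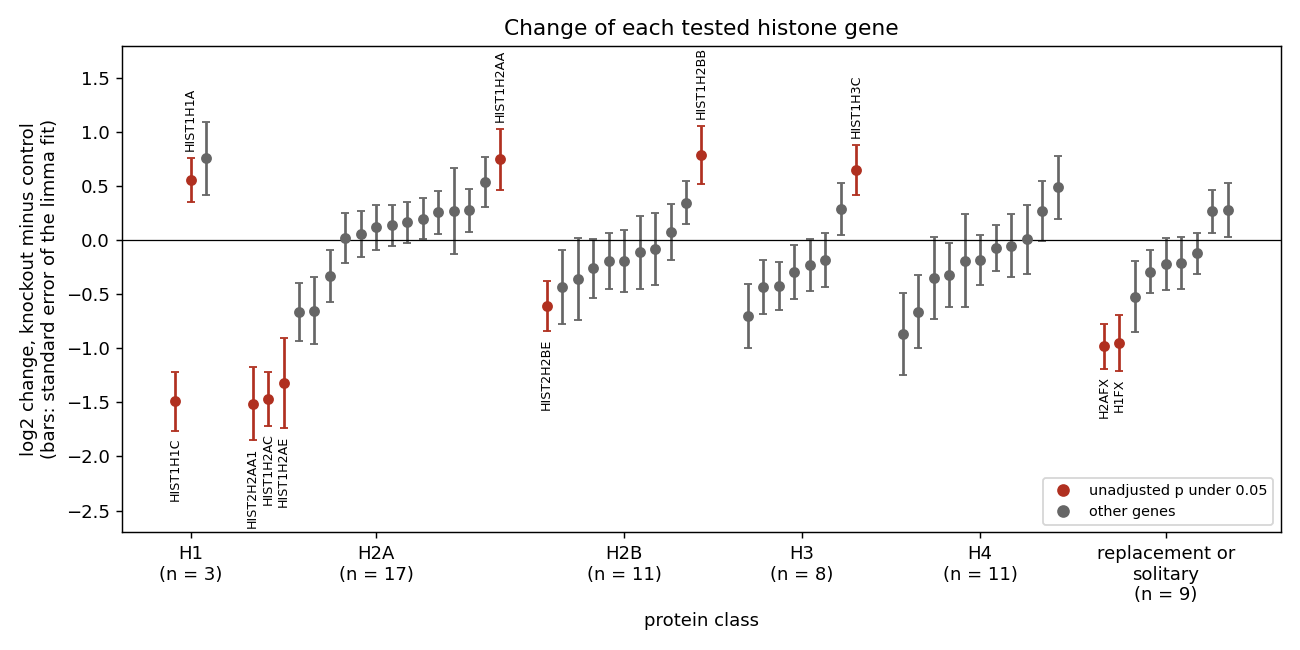
Log2 change (knockout minus control, vertical axis) of the 59 tested histone genes, grouped by protein class on the horizontal axis and ordered by size within a class. Points are fitted changes and bars are standard errors of the limma fit with 2 arrays per genotype. Red points mark the 11 genes with an unadjusted p under 0.05, which lie from −1.51 (HIST2H2AA1) to 0.79 (HIST1H2BB), and no gene passed the adjusted threshold.

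The promoters of the cluster genes with an unadjusted p under 0.05 are shown here, wherever a window was at hand, so that the sequences of the lower and of the higher genes can be set side by side. The windows are the RefSeq promoters of build GRCm38.p6, from 250 bases before to 50 after the start of the gene, 5′ to 3′ on the strand of the gene. HIST1H2AC, HIST1H1C, HIST2H2AA1 and HIST1H2AE had lower values in the knockout and HIST1H2BB, HIST1H3C, HIST1H1A and HIST1H2AA had higher ones. Capitals mark CCAAT boxes (CCAAT) and the octamer ATTTGCAT, each on either strand.
HIST1H2AC, chr13:23683910-23684209, minus strand: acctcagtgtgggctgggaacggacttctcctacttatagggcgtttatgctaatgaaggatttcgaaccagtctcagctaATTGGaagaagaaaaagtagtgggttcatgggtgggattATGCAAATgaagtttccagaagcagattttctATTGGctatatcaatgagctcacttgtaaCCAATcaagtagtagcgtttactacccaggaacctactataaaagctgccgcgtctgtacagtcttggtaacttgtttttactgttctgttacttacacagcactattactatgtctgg
HIST1H1C, chr13:23738557-23738856, plus strand: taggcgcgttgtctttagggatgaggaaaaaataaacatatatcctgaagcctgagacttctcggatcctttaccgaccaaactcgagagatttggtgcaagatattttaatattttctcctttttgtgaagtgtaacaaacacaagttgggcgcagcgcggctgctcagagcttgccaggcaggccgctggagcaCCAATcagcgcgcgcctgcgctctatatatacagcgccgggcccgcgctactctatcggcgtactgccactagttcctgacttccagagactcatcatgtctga
HIST2H2AA1, chr3:96245247-96245546, plus strand: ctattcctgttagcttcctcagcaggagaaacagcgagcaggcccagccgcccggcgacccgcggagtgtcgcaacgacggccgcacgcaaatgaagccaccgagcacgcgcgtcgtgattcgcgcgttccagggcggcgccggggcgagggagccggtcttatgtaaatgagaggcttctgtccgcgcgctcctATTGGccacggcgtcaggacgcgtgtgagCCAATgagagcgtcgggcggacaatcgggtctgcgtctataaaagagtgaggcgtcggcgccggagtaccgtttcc
HIST1H2AE, chr13:23571171-23571470, minus strand: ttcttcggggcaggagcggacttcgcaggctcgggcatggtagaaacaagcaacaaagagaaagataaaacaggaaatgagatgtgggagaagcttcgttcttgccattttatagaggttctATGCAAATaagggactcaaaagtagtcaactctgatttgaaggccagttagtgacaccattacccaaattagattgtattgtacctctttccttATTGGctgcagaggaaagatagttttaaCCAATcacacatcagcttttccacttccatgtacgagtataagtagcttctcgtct
HIST1H2BB, chr13:23746484-23746783, plus strand: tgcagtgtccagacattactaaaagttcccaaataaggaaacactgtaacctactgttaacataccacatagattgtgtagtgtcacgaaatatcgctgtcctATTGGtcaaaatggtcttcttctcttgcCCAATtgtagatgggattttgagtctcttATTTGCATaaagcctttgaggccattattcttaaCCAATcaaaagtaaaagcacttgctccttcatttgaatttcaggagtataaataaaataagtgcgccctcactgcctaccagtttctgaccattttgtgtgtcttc
HIST1H3C, chr13:23745472-23745771, minus strand: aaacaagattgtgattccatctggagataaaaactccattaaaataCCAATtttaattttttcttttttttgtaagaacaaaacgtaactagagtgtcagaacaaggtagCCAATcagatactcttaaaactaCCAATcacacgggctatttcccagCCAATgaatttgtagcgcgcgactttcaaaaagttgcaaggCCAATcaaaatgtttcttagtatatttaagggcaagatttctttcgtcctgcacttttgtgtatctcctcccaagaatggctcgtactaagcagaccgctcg
HIST1H1A, chr13:23763418-23763717, plus strand: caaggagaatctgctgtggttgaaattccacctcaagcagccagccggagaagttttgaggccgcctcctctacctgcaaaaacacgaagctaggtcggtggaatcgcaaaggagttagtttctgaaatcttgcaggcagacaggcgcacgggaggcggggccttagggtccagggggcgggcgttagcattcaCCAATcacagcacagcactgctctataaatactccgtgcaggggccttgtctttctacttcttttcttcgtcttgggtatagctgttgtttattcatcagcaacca
HIST1H2AA, chr13:23934187-23934486, plus strand: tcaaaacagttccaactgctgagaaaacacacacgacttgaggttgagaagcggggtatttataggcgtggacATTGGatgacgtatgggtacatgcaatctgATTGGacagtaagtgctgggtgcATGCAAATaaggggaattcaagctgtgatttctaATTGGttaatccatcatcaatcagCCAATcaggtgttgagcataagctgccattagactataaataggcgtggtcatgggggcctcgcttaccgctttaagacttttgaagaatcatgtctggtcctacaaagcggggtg
A CCAAT box was found in every window shown. The octamer, known as a hallmark of H2B promoters, was found in those of HIST1H2AC, HIST1H2AE, HIST1H2BB and HIST1H2AA, so it was present on both sides of the comparison.

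HIST1H1C, the gene of linker histone H1.2 (H1f2), had the largest change among the cluster genes that were above background on all 4 arrays. Its deposited signals were 1169 and 1156.7 in control pools against 362.9 and 273.1 in knockout pools, with bead standard errors of 56.0, 60.9, 15.2 and 14.8. On the normalized log2 scale it was at 9.51 and 10.13 against 8.41 and 8.25, a change of −1.49 ± 0.27 (2.80-fold lower, 95% interval −2.15 to −0.82). Both knockout arrays lay below both controls, and the gene had an adjusted p of 0.199 in limma. Its change stayed between −1.80 and −1.18 when any single array was left out. Leaving out background correction gave −1.29, and median scaling gave −2.33 with an adjusted p of 0.0296. The other linker histone genes of the cluster with a value did not share its sign. HIST1H1A (H1f1) was at 5.87 and 5.74 in control pools against 6.41 and 6.32 in knockout pools (0.56 ± 0.20, adjusted p = 0.292). HIST1H1B (H1f5) was at 6.42 and 5.46 against 6.75 and 6.65 (0.76 ± 0.34, adjusted p = 0.358). In both the knockouts were the higher arrays after normalization and control replicate 2 the lowest. In the deposited signals control replicate 1 was the highest array for both. HIST1H1A had 154.1 there against 146.3 and 135.9 in knockout pools, and HIST1H1B 194.9 against 163.7 and 147.5. The order of the arrays thus came with background correction and normalization. Under median scaling HIST1H1A was at −0.35, above the median of all genes.

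HIST1H2AC (H2ac6) encodes a core histone H2A. Its signals were 201 and 184.1 in control pools against 104.7 and 115.8 in knockout pools, and its log2 values were 6.49 and 6.73 against 4.91 and 5.37. The change of −1.47 ± 0.25 had the lowest p-value of the histone genes, with an adjusted p of 0.190. Knockout signals lay close to the negative controls, whose 95th percentile was 102 and 113 on those arrays, and the size of the change depended on the background step. It was −0.63 without background correction and −0.92 with an offset of 50 in place of 16.

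HIST2H2AA1 (H2ac18) and HIST2H2AA2 (H2ac19) are H2A genes of the second cluster, which lies on chromosome 3. HIST2H2AA1 had log2 values of 6.74 and 7.11 in control pools against 5.84 and 4.99 in knockout pools. It was above background on the control arrays alone and so passed the filter only through the genotype where it was high. It was 1 of 3 histone genes, and of 1356 among all tested genes, with no knockout array above background. Its fitted change was −1.51 ± 0.34 (adjusted p = 0.237 in limma), or 2.84-fold lower in the knockout. A bound on the fold was also computed. For this bound each dim array entered with the lowest value called above background there, or with the measured value where that was larger. Both knockout values were larger, so the bound was the fitted fold again and sets no minimum. Without background correction the change was −0.71. HIST2H2AA2 was at 7.96 and 8.27 against 7.74 and 7.17, a change of −0.66 ± 0.27. Both rows had all control values above all knockout values.

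HIST1H2AE (H2ac8), another H2A gene, was at 8.23 and 8.04 in the controls, 7.43 on knockout replicate 1 and 6.20 on knockout replicate 3. Its change of −1.32 ± 0.42 (adjusted p = 0.272) rested on the latter array for part of its size, with −0.70 without knockout replicate 3 and −1.94 without knockout replicate 1. HIST2H2BE (H2bc21), an H2B gene of the second cluster, was at 7.71 and 7.72 against 7.33 and 6.89, a change of −0.61 ± 0.23 (adjusted p = 0.310). It was −0.39 without knockout replicate 3. In both genes the control arrays lay close together and knockout replicate 3 was the lowest.

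The cluster genes that were higher in the knockout at an unadjusted p under 0.05 were dim, and without background correction their changes were 0.30 (HIST1H2BB), 0.21 (HIST1H3C), 0.26 (HIST1H1A) and 0.24 (HIST1H2AA). HIST1H2BB (H2bc3), an H2B gene, had signals of 132.1, 96.8, 125.6 and 129.1 on control replicates 1 and 2 and knockout replicates 1 and 3. After normalization these were 5.51 and 4.89 in control pools against 5.88 and 6.09 in knockout pools, a change of 0.79 ± 0.27 (adjusted p = 0.285). The raw signal of control replicate 1 was thus above both knockouts, and the order of the arrays came with background correction and normalization. Under median scaling the change was −0.03. HIST1H3C (H3c3), an H3 gene, was at 4.89 and 4.52 against 5.28 and 5.43 (0.65 ± 0.23, adjusted p = 0.288), with 0.13 under median scaling. HIST1H2AA (H2ac1), known as the testis H2A gene, was not above background in either control and passed the filter through the knockout arrays alone. It was at 4.41 and 4.37 against 4.79 and 5.48, with a fitted change of 0.75 ± 0.28 (adjusted p = 0.305), or 1.68-fold higher. The bound described above also gave 1.68-fold, because both control values exceeded the lowest level called above background on their arrays. It is therefore the fitted fold again and sets no minimum. Without knockout replicate 3 the change was 0.40. For scale, the lowest level called above background was 4.32 to 4.41 on the 4 arrays.

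**Figure D2:**
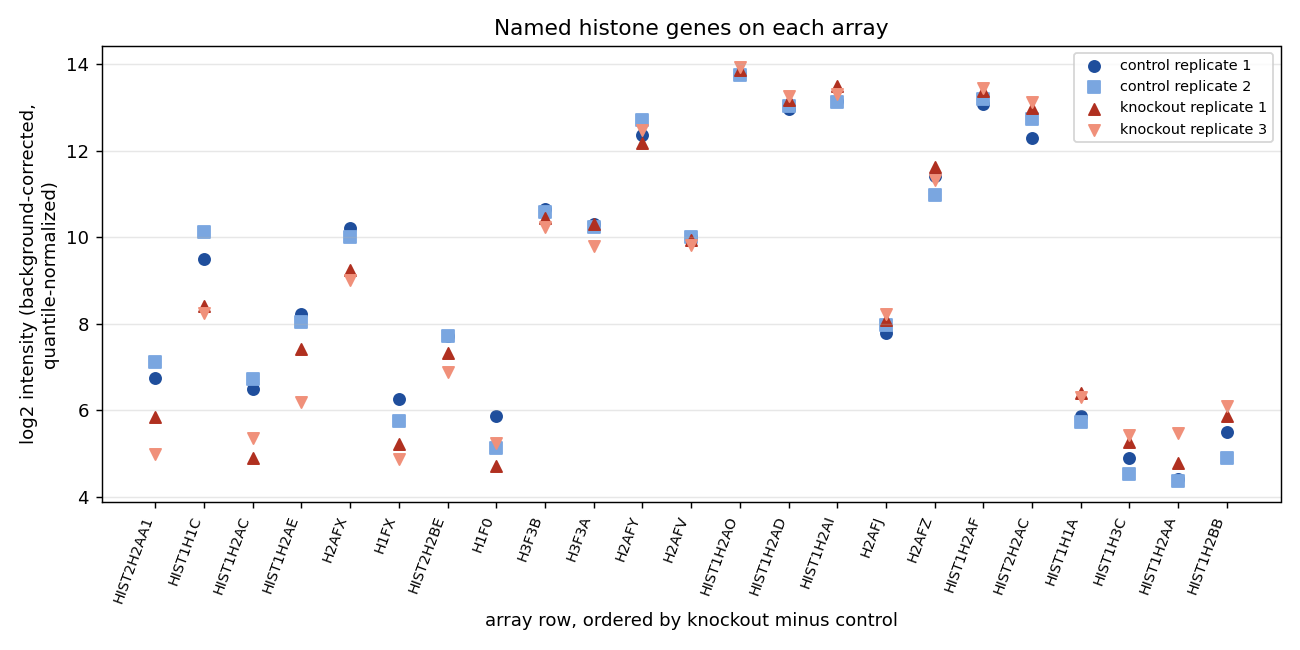
Normalized log2 intensity (vertical axis) of the 23 named histone genes on each of the 4 arrays, ordered from left to right by knockout minus control. Blue circles and squares are control replicates 1 and 2 and red triangles are knockout replicates 1 and 3. From HIST2H2AA1 to HIST2H2BE on the left both knockout values lie below both controls, with H1F0 next to them showing overlap.

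The brightest cluster rows had changes of 0.14 to 0.54, of which none passed the test. HIST1H2AO, HIST1H2AF, HIST1H2AI, HIST1H2AD and HIST2H2AC, all core H2A genes, had signals of 6816 to 15640.4, where the highest signal of any gene was 14911.2 to 16702.9 across arrays. Their signal may be limited at the top of the scale, which was not tested. HIST1H2AO was at 13.79 and 13.75 in control pools against 13.88 and 13.95 in knockout pools (0.14 ± 0.19, 95% interval −0.34 to 0.62). HIST1H2AF was at 13.08 and 13.21 against 13.39 and 13.46 (0.28 ± 0.20). HIST1H2AI was at 13.16 and 13.13 against 13.50 and 13.31 (0.26 ± 0.20). HIST1H2AD and HIST2H2AC completed this set. HIST1H2AD was at 12.98 and 13.05 against 13.17 and 13.26 (0.20 ± 0.19). HIST2H2AC (H2ac20) was at 12.31 and 12.74 against 12.99 and 13.13 (0.54 ± 0.23, adjusted p = 0.345). In each of the 5 rows both knockout values were the higher ones after quantile normalization. Under median scaling HIST1H2AO, HIST1H2AF, HIST1H2AI and HIST1H2AD turned to −0.06, −0.08, −0.07 and −0.23, and HIST2H2AC was at 0.02. The raw signals of HIST1H2AO, for instance, overlapped, at 15235.7 and 14325.9 in control pools against 15640.4 and 14468 in knockout pools. The H2A genes of the clusters therefore ranged from −1.51 (HIST2H2AA1) to 0.75 (HIST1H2AA), both of which passed the filter through a single genotype. Among those above background on all 4 arrays the range was −1.47 (HIST1H2AC) to 0.54 (HIST2H2AC). Of the 17 tested, 11 were higher and 6 lower. Without overlap 7 were higher and 6 lower, where the shares over all genes were 22.0% and 28.1%.

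The H2B, H3 and H4 genes separated the knockout arrays from each other more than the genotypes. Over the 11 tested H2B genes the median log2 intensity relative to the control mean was 0.17 for knockout replicate 1 but −0.54 for knockout replicate 3, and 0.09 and −0.09 for the controls. The same medians were −0.04 and −0.49 for the 8 tested H3 genes and 0.21 and −0.40 for the 11 tested H4 genes. Knockout replicate 3 was below knockout replicate 1 in 28 of these 30 genes, with a median difference of −0.52. Over all genes it was below in 54.3%, with a median difference of −0.04. It was the lowest of the 4 arrays in 22 of the 30 (73.3%), against 33.8% of all genes. H2A did not share this, with knockout replicate 3 below knockout replicate 1 in 8 of 17 genes and class medians of 0.11 and 0.16. The controls differed as well in the 30 H2B, H3 and H4 genes, by less. Control replicate 2 was below control replicate 1 in 22 of them (73.3%, against 56% of all genes), with a median difference of −0.21 (−0.05 over all genes). No test was made of the difference between classes, whose members may share signal. Examples are HIST1H2BH, an H2B gene at 8.60 and 8.19 in control pools against 8.72 and 7.85 in knockout pools, and HIST1H4A, an H4 gene at 9.42 and 9.23 against 9.63 and 8.93. HIST1H3H, an H3 gene, was at 8.62 and 8.70 against 8.76 and 8.21. In all 3 the spread between the knockout arrays exceeded the difference between genotypes, which was −0.11 ± 0.34, −0.05 ± 0.29 and −0.18 ± 0.25. Knockout replicate 3 was also the dimmest array before normalization. It had the highest erythroid marker sum (8144, carried by the globins) and the highest granulocyte-monocyte progenitor sum (21736). Its sums were the lowest for the megakaryocyte markers (575), the neutrophil markers (1069) and 5 tested B cell markers (394, against 763 to 1434 on the other arrays). The part of any of these in the H2B, H3 and H4 values was not tested.

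Within these classes the fitted changes ran from −0.61 to 0.79 for H2B, from −0.70 to 0.65 for H3 and from −0.87 to 0.49 for H4. The lowest H4 value belonged to HIST1H4D, at 5.50 and 5.78 in control pools against 5.30 and 4.24 in knockout pools (−0.87 ± 0.38), with knockout replicate 3 not above background. The highest belonged to HIST1H4I, at 8.10 and 7.43 against 8.38 and 8.13 (0.49 ± 0.29). Of the H3 genes HIST1H3F was at 7.52 and 7.67 against 7.28 and 6.52 (−0.70 ± 0.30), and HIST1H3E was at 9.26 and 9.40 against 9.08 and 8.73 (−0.42 ± 0.22). HIST1H3F had a detection p-value under 0.05 on the knockout arrays alone, although its control signals of 350.8 and 280.9 were the higher ones, so its detection p-value did not follow its signal. The second cluster (HIST2) had a median of −0.33 over 9 tested genes and the first (HIST1) one of −0.07 over 39. Relative to the control mean, the HIST2 medians were −0.11 on knockout replicate 1 and −0.66 on knockout replicate 3. The HIST1 medians were 0.15 and −0.33, so both clusters were lower on knockout replicate 3. The small clusters HIST3 and HIST4 had 1 tested gene each, HIST3H2A at −0.65 ± 0.31 and HIST4H4 at −0.35 ± 0.38. HIST3H2A had no knockout array above background, and its fold by the bound described above was 1.48-fold lower. The 95% interval of its fitted change, −1.42 to 0.12, holds 0.

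**Figure D3:**
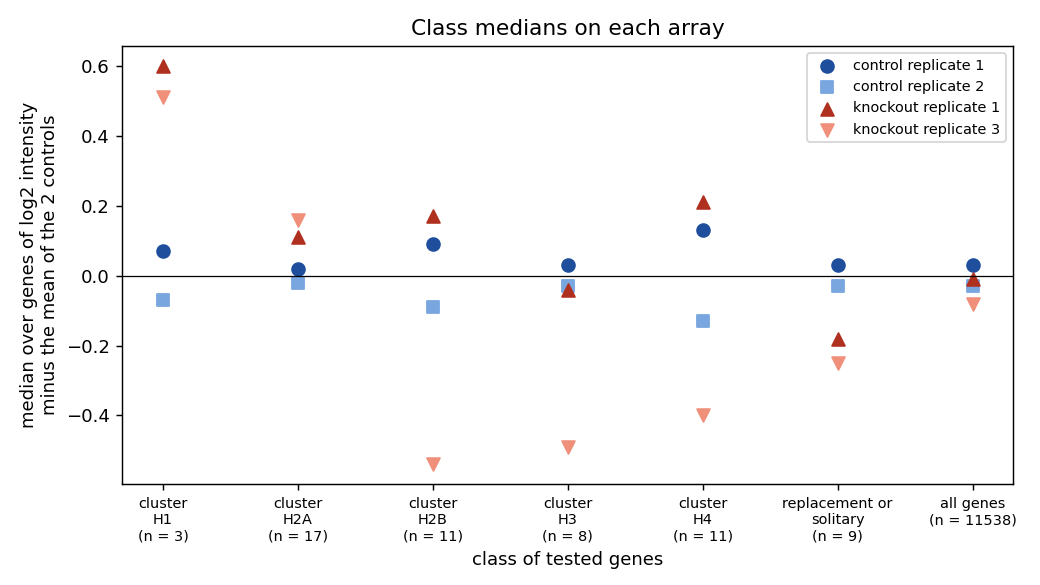
Median log2 intensity relative to the mean of the 2 controls (vertical axis) for each class of tested histone genes and for all 11538 genes (horizontal axis), with 1 symbol per array. The controls are symmetric around 0 by construction. Knockout replicate 3 lies at −0.54, −0.49 and −0.40 for H2B, H3 and H4, away from knockout replicate 1, and the arrays of a genotype lie close together for H1, H2A and the replacement or solitary genes.

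Among the replacement and solitary genes H2AFX and the linker histone gene H1FX had the lowest values. H2AFX encodes H2AX, the H2A variant that is phosphorylated at DNA breaks. Its signals were 1814.7 and 1063.7 in control pools against 595 and 412.3 in knockout pools. Its log2 values were 10.21 and 10.02 against 9.24 and 9.02, a change of −0.98 ± 0.21 (1.98-fold lower, 95% interval −1.50 to −0.46) with an adjusted p of 0.232. Both knockout arrays lay below both controls, and the change kept to −1.09 to −0.87 with any 1 array left out and was −0.90 without background correction. H1FX (H1f10), a solitary linker histone, was at 6.26 and 5.75 against 5.22 and 4.88 (−0.95 ± 0.26, adjusted p = 0.249). It was not above background on knockout replicate 3, and its change was −0.36 without background correction. H1F0, the linker histone H1.0 that is known to accumulate in cells that stop dividing, was at 5.87 and 5.13 against 4.71 and 5.25, so its genotypes overlapped (−0.52 ± 0.33). Its change was −0.15 without control replicate 1 and −0.25 to −0.89 without each of the others.

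The genes of H3.3, H2A.Z and macroH2A differed by less. H3F3A and H3F3B, which encode the same H3.3 protein, were at 10.31 and 10.25 against 10.32 and 9.81 (−0.22 ± 0.24) and at 10.66 and 10.59 against 10.45 and 10.23 (−0.29 ± 0.20). Only knockout replicate 3 set H3F3A apart, and without it the change was 0.04. H2AFZ (H2az1) was at 11.43 and 10.97 against 11.63 and 11.32 (0.28 ± 0.25), and its paralog H2AFV (H2az2) was at 10.01 and 10 against 9.94 and 9.83 (−0.12 ± 0.19). Their 95% intervals, −0.35 to 0.90 and −0.61 to 0.36, both hold 0. H2AFY (Macroh2a1), the macroH2A gene measured here, was at 12.36 and 12.72 against 12.18 and 12.48 (−0.21 ± 0.24). H2AFJ, which encodes the variant H2A.J, was at 7.80 and 7.97 against 8.09 and 8.23 (0.27 ± 0.20). Under median scaling H2AFZ and H2AFJ turned to −0.28 and −0.64. Of the 9 tested genes of this kind 7 were lower, 2 of them at an unadjusted p under 0.05. Of the 50 tested cluster genes 29 were lower, 5 of them at that threshold. Over all 11538 genes 6182 were lower, and 8.77% were lower at that threshold. No test of the difference between the cluster and the replacement genes was made.

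Several H2A and H2B genes start back to back on opposite strands and share the DNA between them. In the RefSeq promoter windows 6 such pairs were found among the 72 rows, with starts 164 to 281 bases apart. Their H2A and H2B members did not always have values of the same size or sign. HIST1H2AE at −1.32 ± 0.42 lies opposite HIST1H2BG at −0.36 ± 0.38. HIST1H2AG, HIST1H2AK and HIST1H2AD were at 0.12 ± 0.21, 0.17 ± 0.19 and 0.20 ± 0.19 opposite HIST1H2BJ, HIST1H2BN and HIST1H2BF at −0.26 ± 0.27, −0.19 ± 0.29 and −0.19 ± 0.26. HIST1H2AH and HIST1H2BK were at 0.02 ± 0.23 and −0.08 ± 0.33, and HIST1H2BA, opposite HIST1H2AA, was not above background. The differences within pairs were not tested, and each was smaller than the sum of the standard errors of its members except in the pair of HIST1H2AE.

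The promoter windows of 64 of the 72 rows were at hand, 65 windows in all. The octamer ATTTGCAT, searched on both strands, was present in 7 of 13 H2B and 7 of 17 H2A windows, in 1 of 11 windows of replacement and solitary genes and in no H1, H3 or H4 window, against 1.74% of 32851 promoters. CCAAT was present in all H1, H2A, H2B and H3 windows but in 3 of 11 H4 windows, against 37.4% of all promoters. The core of the Myb site, searched on both strands as the letters AAC preceded by T or C and followed by GG or TG, was present in 19 of 65 histone windows (29.2%) and in 28.3% of all promoters. CHR elements, which the complexes that B-Myb joins are known to bind, were searched as TTTGAA and TTCGAA and were present in 25 of 65 (38.5%) against 19.2%. E2F sites, searched as TTTCCCGC, TTTGGCGC, TTTCGCGC and TTTGCCGC, were present in 9 of 65 (13.8%) against 2.26%. The classes differed: Myb matches ran from 1 of 11 H4 windows to 7 of 13 H2B windows. CHR matches were in 11 of 17 H2A, 8 of 13 H2B and 2 of 6 H1 windows. They were in 1 of 7 H3 and 2 of 11 H4 windows and in 1 of 11 of the replacement and solitary genes. E2F matches were in 5 of 17 H2A, 3 of 13 H2B and 1 of 11 H4 windows and in no other class. Windows of paired genes overlap, so their motifs are counted in both. Of the 7 genes lower at an unadjusted p under 0.05, 5 had a window, and Myb, CHR and E2F sequences were in 1, 2 and 0 of these. Of the 4 higher genes the counts were 1, 3 and 0. A match is a description of letters and no evidence of binding.

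Genes that process histone transcripts and carry histone proteins were looked at from lists of their own. Of 22 tested genes of histone mRNA processing 13 were higher and 9 lower in the knockout, 0 passed the adjusted threshold in limma and 1 (4.55%) had an unadjusted p under 0.05, beside 15.3% of all genes. That gene was Ncbp1, a cap-binding protein, at 8.23 and 8.21 in control pools against 9.17 and 9.10 in knockout pools (0.92 ± 0.19, adjusted p = 0.232). Ccne2, a cyclin of the G1/S transition, followed at 0.74 ± 0.30, with Lsm1, a factor of RNA decay, at 0.50 ± 0.21 and Upf1, a helicase of RNA decay, at 0.41 ± 0.20. On the lower side were Srrt (−0.27 ± 0.20), Clp1 (−0.50 ± 0.38), Cstf2 (−0.24 ± 0.20) and Fip1l1 (−0.35 ± 0.31), of which the last 3 act in cleavage and polyadenylation. Slbp, the stem-loop binding protein, and Npat, the coactivator of cluster genes, were not above background on any array by the detection p-value and were not tested. The median of the list was 0.06.

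Of 27 tested histone chaperone and exchange genes 21 were higher and 6 lower, where 5356 of all 11538 genes were higher and 6182 lower. The list had a median of 0.18 beside −0.04 over all genes. In limma 0 passed the adjusted threshold and 2 (7.41%) had an unadjusted p under 0.05, below the 15.3% of all genes. Chaf1a, the large subunit of the CAF-1 complex that deposits histones behind the replication fork, was at 8.33 and 8.13 in control pools against 8.74 and 9.25 in knockout pools (0.77 ± 0.25, adjusted p = 0.276). Rbbp4, a histone-binding subunit of that complex, was at 6.83 and 6.60 against 7.25 and 7.30 (0.55 ± 0.20, adjusted p = 0.302). Hat1, which acetylates new H4, was at 0.42 ± 0.22 and Npm3 at 0.34 ± 0.20. On the lower side were Vps72 (−0.29 ± 0.20) and Srcap (−0.50 ± 0.36), both of the complex that inserts H2A.Z, Anp32e (−0.35 ± 0.39), which removes H2A.Z, and Nap1l4 (−0.12 ± 0.25), a nucleosome assembly protein. The 17 tested S phase genes had a median of 0.52, beside the cluster median of −0.15, and 14 of them were higher. Of the 17, 5 (29.4%, against 6.56% of all genes) were higher at an unadjusted p under 0.05. The 11 tested G2 and mitosis genes had a median of 0.03, and 2 of them (18.2%, against 8.77% of all genes) were lower at that threshold, the spindle proteins Nusap1 (−0.95 ± 0.37) and Prc1 (−0.92 ± 0.36).

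**Figure D4:**
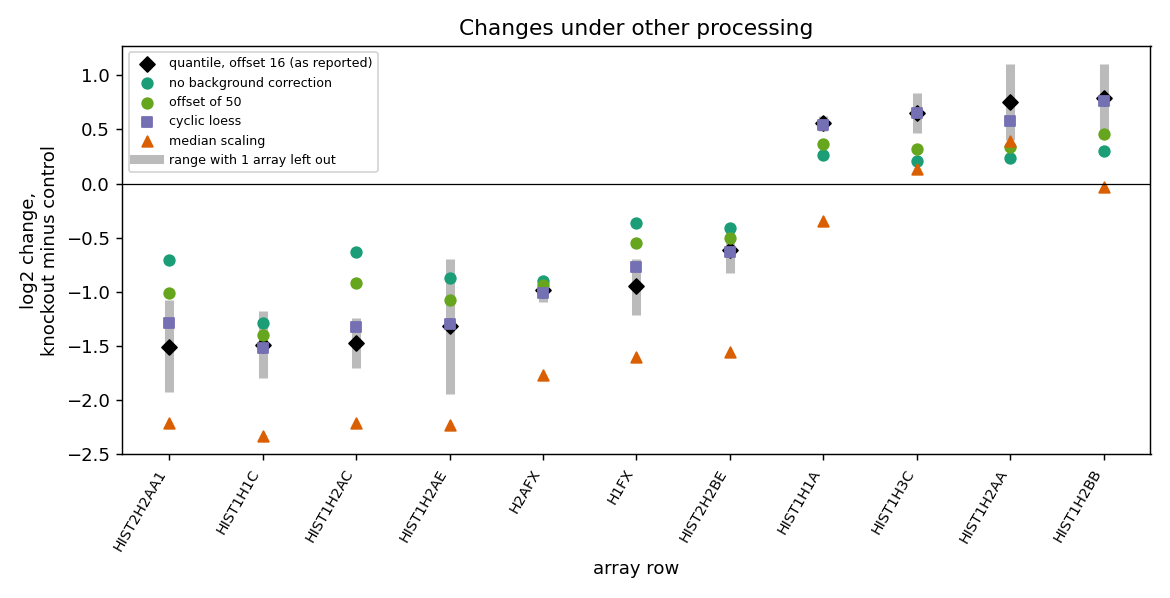
Log2 change (knockout minus control, vertical axis) of the 11 histone genes with an unadjusted p under 0.05 (horizontal axis) under 5 ways of processing, with grey bars for the range when 1 array is left out. The 7 genes on the left lie below 0 under every way shown. Of the 4 on the right HIST1H1A (−0.35) and HIST1H2BB (−0.03) turn below 0 under median scaling, where the median of all genes was −0.70.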

How the data were processed

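Histone members and lists were chosen with earlier results of these data known. The deposited table gave, per the file headers, an intensity, a detection p-value, a bead standard error (a signal in intensity units) and a bead number for each gene name and array. The deposited intensity had neither background subtraction nor normalization between arrays, as the values show, and how probes were combined is not given in the sources used here. Arrays have no read depth, and their number, 2 per genotype, limits the precision. The authors' normalized value table was not used here because nothing at hand names its rows. Whether p-values measure more than the spread between these pools cannot be told.

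Intensities were corrected by normexp with 936 negative control probes (offset 16), quantile-normalized and taken to log2 by neqc in limma 3.58.1 (R 4.3.3). Genes with a detection p under 0.05 on at least 2 of 4 arrays were kept, 1 row per gene (the brightest), which left 11538. Names were updated through RefSeq (GRCm38.p6), and all 72 histone rows matched. Knockout minus control was fitted with lmFit and eBayes without covariates, two-sided, adjusted by Benjamini-Hochberg at 0.05. Errors are standard errors of this fit. Lists were described by counts and medians. Genes named were fixed replacement and linker genes, all others at an unadjusted p under 0.05, the 5 cluster rows with the highest mean and, of the processing and chaperone lists, the 4 per direction with the lowest p, while further members serve as examples chosen after their values were seen. The fit was checked on simulated data. The alternatives changed the background step, normalization, filter, row choice and variance model and left out each array.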

Additional observations from a re-analysis of the deposited data

How the results depend on the processing

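Over all genes the count past the adjusted threshold was 0 in the reported fit, 3 with cyclic loess, 940 with median scaling, 17 with detection required on all 4 arrays and 15 with trend and robust eBayes, and for histone genes it was 6 with median scaling and 0 otherwise. Histone genes at an unadjusted p under 0.05 numbered 11 (18.6%, against 15.3% of all genes), 27 with median scaling (45.8%, against 38% of all genes) and 5 to 17 with 1 array left out, where 8.09% to 14.7% of all genes did (without knockout replicate 3 it was 5, without control replicate 2 it was 6, and 17, or 28.8% against 14.7%, when knockout replicate 1 was left out). Those without overlap numbered 32 (54.2%, against 50.1% of all genes), and 40 to 51 with 1 array left out (72.3% to 78.3% of all genes), when a genotype with a lone array overlaps less. The cluster median of −0.15 was −0.87 with median scaling and −0.45 to 0.13 with 1 array left out. The replacement and solitary median of −0.22 was −0.31 with cyclic loess, −0.96 with median scaling, −0.12 without a filter and −0.25 to −0.18 with 1 array left out. Median scaling turned the sign of H2AFZ (−0.28), H2AFJ (−0.64), HIST1H1A (−0.35), HIST1H2BB (−0.03), HIST1H2AO (−0.06), HIST1H2AF (−0.08), HIST1H2AI (−0.07) and HIST1H2AD (−0.23), where all genes were at −0.70, and with 1 array left out H3F3A ran from −0.47 to 0.04, the latter without knockout replicate 3. The cause of these changes was not tested. With 1 array left out the lone array is assumed to vary like the others. Over the named genes and all alternatives 258 values kept their sign and side of the threshold, 9 changed sign and 6 passed the threshold. The alternatives of filter, row choice and variance model left the normalized values as they were, so no sign could change there. No named gene passed the threshold in the reported fit, so keeping its side means that it did not pass. The processing and chaperone genes past the adjusted threshold stayed at 0 under every alternative run, and the counts of rows above background stayed within 1.5 times. No paired analysis was possible because the genotypes share only replicate number 1. Dim genes near the negative controls, such as HIST1H2AA and HIST1H3C, are limited by signal over background.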

Other observations

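Cenpa, the H3 variant of the centromere, falls outside the naming rule and was looked up after its values were seen. Its signals were 4109 and 1702.9 in control pools against 1746.2 and 1115.1 in knockout pools. Its log2 values were 11.48 and 10.73 against 10.81 and 10.58, a change of −0.41 ± 0.30 (limma, adjusted p = 0.535), with control replicate 1 apart from the other 3 arrays.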
